A study of Mus musculus with 3 samples.

Results

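CD8 and a set of lectin-like receptors are best known from CD8+ T cells and natural killer (NK) cells, and their genes were followed here in sorted CD4+ T-follicular regulatory (TFR) cells. The genes were picked by name from the authors' gene tables, with their values in these libraries in view, because *Cd8a*, *Klrd1* and *Klrc1* had moved against the granzyme genes. They are *Cd8a*, *Cd8b1*, *Klrd1*, *Klrc1*, *Klrk1* and *Klrb1c*, 6 of 25759 genes in the tables, and all 6 were found in every library. The 2 CD8 chains belong to the immunoglobulin superfamily and the other 4 genes encode C-type lectin-like receptors. Because these values led to the choice, everything below about the 6 genes is a description and no test was made.

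Poly(A) RNA of TFR cells was sequenced in 3 libraries, 1 for each genotype, so no value has a spread between mice. The cells were B220-, CD4+, CXCR5+, GITRhi and Blimp-GFP+, and came from spleen and mesenteric lymph nodes of C57BL/6J mice on day 10 after immunization with 125 µg NP-KLH in alum and a boost on day 7. The library labelled N is named NFATc1-deficient, and its genotype is *Nfatc1* fl/fl.*Prdm1* gfp/+.FIC. The library labelled αA is named NFATc1/αA-overexpressing, with the genotype *Nfatc1* caaA.*Prdm1* gfp/+.FIC. The library labelled PαA is named NFATc1/αA-overexpressing and Blimp-1-deficient, with the genotype *Nfatc1* caaA.*Prdm1* gfp/fl.FIC. All 3 genotypes shared FIC, a Cre recombinase made from the *Foxp3* locus, and 1 *Prdm1* allele carrying gfp, so none of the libraries came from cells with both *Prdm1* alleles unmodified. Per the study, this Cre is also active in some conventional CD4+ T cells and not in CD8+ T cells. The number of mice behind each library and their age are not given in the sources used here.

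RPKM below is the authors' level, the exon reads of a gene scaled to its exon length and to the size of the library. The totals behind it were 25465829 to 29726219 reads a library, and 80.6% to 83.9% of the exon reads were unique. Intron reads were 3.62%, 5.30% and 3.91% of the gene reads in N, αA and PαA. Per the paper, *Nfatc1* is floxed in N, and αA and PαA express an active NFATc1/αA exogenously. *Nfatc1* had an RPKM of 63.6 in N, 62.9 in αA and 32.4 in PαA, an order that does not follow the labels. A level over the whole gene cannot tell transcripts of a floxed allele or of an exogenous sequence from those of an unmodified allele. It therefore does not test the labels. Each library is called by its label and no more is meant by it. *Prdm1*, which encodes Blimp-1, had an RPKM of 25.6, 24.9 and 10.0. *Cd4*, the coreceptor used in the sort, had an RPKM of 488, 396 and 341. The sort markers *Cxcr5* (48.3, 81.3 and 47.6) and *Tnfrsf18*, the GITR gene (303, 217 and 145), and the regulatory factor gene *Foxp3* (32.7, 20.9 and 15.3) were present in every library.

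CD8 is the coreceptor of T cells that recognise peptides on class I MHC. It is built from an α and a β chain, either as an αβ pair or as an αα pair, and the β chain needs the α chain to reach the surface. CD94, the product of *Klrd1*, pairs with NKG2A from *Klrc1* to form an inhibitory receptor for the class Ib molecule Qa-1. NKG2D, the product of *Klrk1*, is an activating receptor for stress-induced ligands, and *Klrb1c* encodes NK1.1, the marker by which NK cells of C57BL/6 mice are usually recognised. These receptors also appear on activated CD8+ T cells and on unconventional T cells.

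Promoter sequences are shown because the genotypes concern NFATc1 and Blimp-1, which bind DNA motifs with short cores. RefSeq promoters of GRCm38.p6, running from 250 bases before to 50 bases after the start site, matched 4 of the 6 genes, *Cd8a*, *Klrc1*, *Klrk1* and *Klrb1c*. *Klrd1* and *Cd8b1* have no entry. The RefSeq start site of *Klrb1c* lies inside the span the authors give for the gene. Capitals mark 3 motifs searched on both strands, with matches on the opposite strand seen as their reverse complement. The NFAT core searched was GGAAA. The Blimp-1 core was GAAAG, which can overlap the NFAT core in 4 bases. The RUNX motif was TGTGGT.
*Cd8a*, chr6:71373177-71373476, plus strand: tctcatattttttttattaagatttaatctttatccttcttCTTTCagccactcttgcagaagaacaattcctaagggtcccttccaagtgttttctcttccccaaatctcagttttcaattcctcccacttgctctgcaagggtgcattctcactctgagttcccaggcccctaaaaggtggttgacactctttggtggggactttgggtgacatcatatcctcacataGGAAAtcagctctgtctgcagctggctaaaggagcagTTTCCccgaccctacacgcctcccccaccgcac
*Klrc1*, chr6:129678924-129679223, minus strand: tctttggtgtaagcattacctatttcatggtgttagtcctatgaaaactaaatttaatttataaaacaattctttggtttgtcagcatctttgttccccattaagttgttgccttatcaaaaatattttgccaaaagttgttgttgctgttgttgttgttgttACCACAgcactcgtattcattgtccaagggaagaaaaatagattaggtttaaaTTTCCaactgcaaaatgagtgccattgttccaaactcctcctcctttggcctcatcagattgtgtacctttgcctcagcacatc
*Klrk1*, chr6:129623815-129624114, minus strand: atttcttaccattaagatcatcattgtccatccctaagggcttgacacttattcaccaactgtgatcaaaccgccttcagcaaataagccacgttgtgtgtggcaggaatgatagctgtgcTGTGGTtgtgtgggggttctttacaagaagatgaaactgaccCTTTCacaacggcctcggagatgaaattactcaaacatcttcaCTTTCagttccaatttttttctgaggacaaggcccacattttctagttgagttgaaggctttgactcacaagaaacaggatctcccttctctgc
*Klrb1c*, chr6:128788592-128788891, minus strand: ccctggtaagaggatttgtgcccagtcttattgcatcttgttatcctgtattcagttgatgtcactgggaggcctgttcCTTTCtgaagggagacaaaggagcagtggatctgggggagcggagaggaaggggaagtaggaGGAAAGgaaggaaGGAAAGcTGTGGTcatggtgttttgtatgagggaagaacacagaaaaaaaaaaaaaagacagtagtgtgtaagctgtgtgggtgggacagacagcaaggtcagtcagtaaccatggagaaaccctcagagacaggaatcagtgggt

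The NFAT core occurred 2 times in the *Cd8a* window, 1 time in that of *Klrc1*, 2 times in that of *Klrb1c* and not in that of *Klrk1*. The Blimp-1 core occurred 1 time in *Cd8a*, 2 times in *Klrk1*, 3 times in *Klrb1c* and not in *Klrc1*. The RUNX motif, bound by the factors that silence *Cd4* and maintain CD8 expression, occurred 1 time in each of *Klrc1*, *Klrk1* and *Klrb1c*. Both *Cd8a* NFAT cores lay near the start site, from 20 to 16 bases before it and from 18 to 22 bases after it. Of 32851 promoters of this length, 61.3% held the NFAT core, 57.3% the Blimp-1 core and 16.8% the RUNX motif. A match describes letters in a window and no binding was measured here.

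*Cd8a*, which encodes the α chain of CD8, had 18, 179 and 231 exon reads and 0, 9 and 0 intron reads (N, αA and PαA). Its RPKM was 0.193 in N (Poisson interval 0.115 to 0.306), 2.10 in αA (1.80 to 2.43) and 2.90 in PαA (2.53 to 3.29). The gene was thus nearly absent from N and present at a low level in the other 2 libraries. Its RPKM was 10.9-fold higher in αA than in N, a log2 ratio of 3.44 with an exact Clopper-Pearson 95% interval of 2.74 to 4.23. PαA stood above αA by a log2 ratio of 0.47 (0.18 to 0.75) and above N by 3.91 (3.21 to 4.69). All such intervals cover counting error only and compare libraries, not genotypes, since the reads were amplified and each genotype has 1 library. Reads across exon junctions of *Cd8a* numbered 6, 14 and 50, which is 33.3%, 7.82% and 21.7% of its exon reads. On these few reads the log2 ratio of αA to N was 1.34 (-0.13 to 3.01) and that of PαA to αA 1.86 (0.98 to 2.83), so the height of *Cd8a* in αA depended on which reads were counted, while the ratio of PαA to N, 3.20 (1.98 to 4.71), was high either way.

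*Cd8b1*, the gene of the β chain, lies 35933 bases upstream of *Cd8a* on the same strand and did not follow it. It had 400, 486 and 198 exon reads (N, αA and PαA), at an RPKM of 9.07, 12.03 and 5.24. It was the most abundant of the 6 genes in N and αA, but not in PαA. The log2 ratio was 0.41 (0.21 to 0.60) for αA against N and -1.20 (-1.44 to -0.96) for PαA against αA, which makes *Cd8b1* the one gene of the 6 that was lower in PαA than in both other libraries. Junction reads of 87, 157 and 40 had the same order, with a log2 ratio of -1.95 (-2.49 to -1.44) for PαA against αA. The β chain transcript thus exceeded the α chain transcript in every library, by an RPKM ratio of 46.9 (29.3 to 80.0) in N, 5.73 (4.82 to 6.85) in αA and 1.81 (1.49 to 2.20) in PαA. *Cd4* exceeded *Cd8a* 2525-fold in N, 189-fold in αA and 118-fold in PαA. These ratios within a library, and the others below, were formed after the values were seen.

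**Figure D1:**
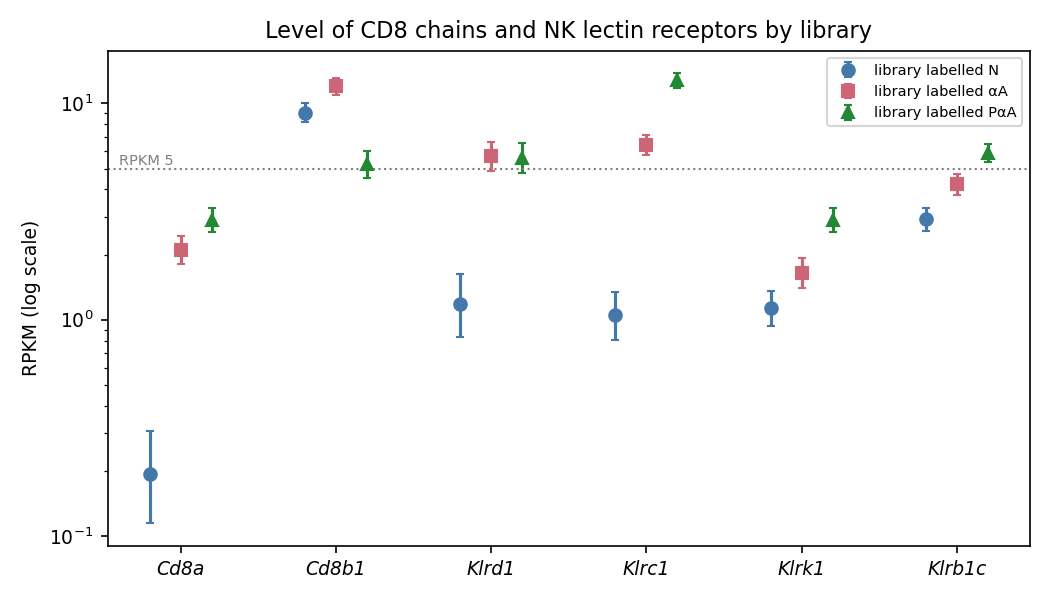
RPKM of the 6 genes on a log scale in the libraries labelled N (circles), αA (squares) and PαA (triangles), with Poisson 95% intervals for counting error and 1 library per genotype, and a dotted line at an RPKM of 5. *Cd8a* goes from 0.193 in N to 2.10 and 2.90. *Klrd1* and *Klrc1* go from 1.18 and 1.05 in N to 5.72 and 6.46 in αA, and *Cd8b1* is lowest in PαA.

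*Klrd1*, which encodes CD94, had 38, 169 and 155 exon reads (N, αA and PαA), all of them unique. Its RPKM was 1.18, 5.72 and 5.61. The level in N was the low one, and αA and PαA did not differ beyond counting error, with a log2 ratio of -0.03 (-0.35 to 0.30) between them. Against N the log2 ratio was 2.28 (1.76 to 2.83) in αA, a 4.85-fold difference, and 2.25 (1.73 to 2.80) in PαA. The junction reads of 16, 66 and 76 had the same pattern.

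*Klrc1*, the gene of the inhibitory partner NKG2A, had 62, 349 and 645 exon reads (N, αA and PαA), at an RPKM of 1.05, 6.46 and 12.8. It was higher at each step from N to αA to PαA and was the most abundant of the 6 genes in PαA. The log2 ratio was 2.62 (2.23 to 3.03) for αA against N, a 6.14-fold difference, 0.98 (0.79 to 1.18) for PαA against αA and 3.60 (3.22 to 4.00) for PαA against N. Between 55.5% and 64.5% of the *Klrc1* reads were unique, so part of them could also come from a near-identical gene. With unique reads alone, 40, 224 and 358, the log2 ratios were 2.63, 0.81 and 3.44. *Klrc2*, its activating relative next to it in the cluster, had 9, 0 and 47 exon reads.

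Within a library, *Klrc1* and *Klrd1* were at similar levels in N, with an RPKM ratio of 0.891 (0.586 to 1.37), and in αA, with a ratio of 1.13 (0.936 to 1.36). In PαA the ratio was 2.27 (1.91 to 2.73), so by all exon reads NKG2A transcript exceeded CD94 transcript in that library. These ratios count all exon reads, of which 64.5%, 64.2% and 55.5% were unique for *Klrc1* in N, αA and PαA, and 100% for *Klrd1*. Reads of a near-identical gene could thus raise the *Klrc1* side, and no ratio was computed on unique reads alone. *Klrc1* against *Klrk1* had a ratio of 0.933 in N, 3.92 in αA and 4.41 in PαA.

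**Figure D2:**
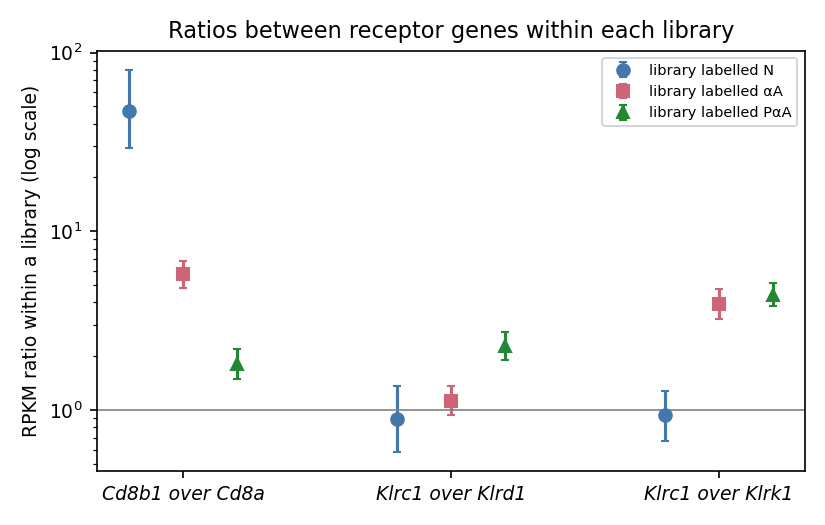
Ratio of RPKM between 2 genes of the same library on a log scale, for *Cd8b1* over *Cd8a*, *Klrc1* over *Klrd1* and *Klrc1* over *Klrk1*, with exact 95% counting intervals. All exon reads are counted, unique or not. The *Cd8b1* to *Cd8a* ratio falls from 46.9 in N to 1.81 in PαA, and the *Klrc1* to *Klrd1* ratio is above 1 beyond its interval in PαA.

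*Klrk1*, which encodes NKG2D, had 115, 154 and 253 exon reads (N, αA and PαA), at an RPKM of 1.13, 1.65 and 2.89, and 0, 15 and 12 intron reads. It was highest in PαA, with log2 ratios of 0.81 (0.52 to 1.11) against αA and 1.36 (1.04 to 1.69) against N. The log2 ratio of αA to N was 0.55 (0.19 to 0.91), and its direction did not hold in the junction reads, 29, 23 and 48, where it was -0.22 (-1.07 to 0.62). The difference between αA and N for NKG2D therefore depended on the reads counted, while PαA was highest by either count.

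*Klrb1c*, which encodes NK1.1, had 257, 341 and 445 exon reads (N, αA and PαA), at an RPKM of 2.92, 4.23 and 5.90. Its differences were small and in 1 direction, with log2 ratios of 0.53 (0.30 to 0.77) for αA against N, 0.48 (0.27 to 0.69) for PαA against αA and 1.02 (0.79 to 1.24) for PαA against N. About 69% of its reads were unique, 68.6% to 69.4%. The predicted gene *Gm44511* overlaps it by 8931 bases on the same strand and had 2, 44 and 10 exon reads, none unique, so some reads could belong to either. NK1.1 transcript was already present in N at an RPKM above those of *Klrd1*, *Klrk1*, *Klrc1* and *Cd8a*.

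Set side by side, *Cd8a*, *Klrd1* and *Klrc1* were 4.85 to 10.9 times as high in αA as in N, and the other 3 genes 1.33 to 1.46 times. The orders that follow count all exon reads, unique or not. The order of levels in N was *Cd8b1*, *Klrb1c*, then *Klrd1*, *Klrk1* and *Klrc1*, whose neighbours in that order did not differ beyond counting error, then *Cd8a*. In αA it was *Cd8b1*, *Klrc1* and *Klrd1*, of which the last 2 did not differ beyond counting error, then *Klrb1c*, *Cd8a* and *Klrk1*. In PαA *Klrc1* led, followed by *Klrb1c*, *Klrd1* and *Cd8b1* without a difference between neighbours beyond counting error, and by *Cd8a* and *Klrk1*, which did not differ beyond it either.

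A 2-fold difference was taken as the limit, among genes whose RPKM passed 5 in some library. This reads the expression value of the published filter as an RPKM. *Cd8b1*, *Klrd1*, *Klrc1* and *Klrb1c* passed the level filter. *Klrd1* and *Klrb1c*, at 5.72 and 5.90, were just inside it, and *Cd8a* and *Klrk1*, at 2.90 and 2.89, were outside. In αA against N, 2 of the 4, *Klrd1* and *Klrc1*, were past 2-fold and higher, where 1.44% of 7017 expressed genes were higher and 4.25% past the limit in either direction. In PαA against αA, *Cd8b1* was past it and lower, where 2.45% of expressed genes were lower and 4.63% past it either way, and *Klrc1* at 1.98-fold fell just short. In PαA against N, *Klrd1*, *Klrc1* and *Klrb1c* were past it and higher, where 2.57% of expressed genes were higher and 10.3% past it either way. *Klrb1c*, at 2.02-fold (1.73 to 2.37), was barely past it and fell under 2-fold with TPM, with either pseudocount and after thinning to the smallest library. With the lower filter of an RPKM above 1, *Cd8a* was added in αA against N, where 2.71% of 10262 genes were higher, and 3.91% were higher in PαA against N, where 5 of the 6 genes were. The genes were chosen with these ratios known, so nothing is read from the counts.

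The median log2 ratio of the 6 genes was 1.41 for αA against N, 0.47 for PαA against αA and 1.81 for PαA against N, beside -0.17, -0.07 and -0.25 over the 10262 genes with an RPKM above 1. Since the median gene was below 0, ratios were also scaled with edgeR's TMM factors, which brought these medians over all genes to -0.01, -0.01 and -0.02. With TMM the log2 ratio of αA to N was 3.60 for *Cd8a*, 2.44 for *Klrd1*, 2.78 for *Klrc1* and 0.57 for *Cd8b1*. For PαA against αA it was -1.13 for *Cd8b1*, 1.05 for *Klrc1*, now past 2-fold as 2.41% of expressed genes were in that direction, and 0.04 for *Klrd1*, whose sign flipped. Among expressed genes past 2-fold, 33.9% were higher in αA than in N by RPKM and 51.1% with TMM.

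**Figure D3:**
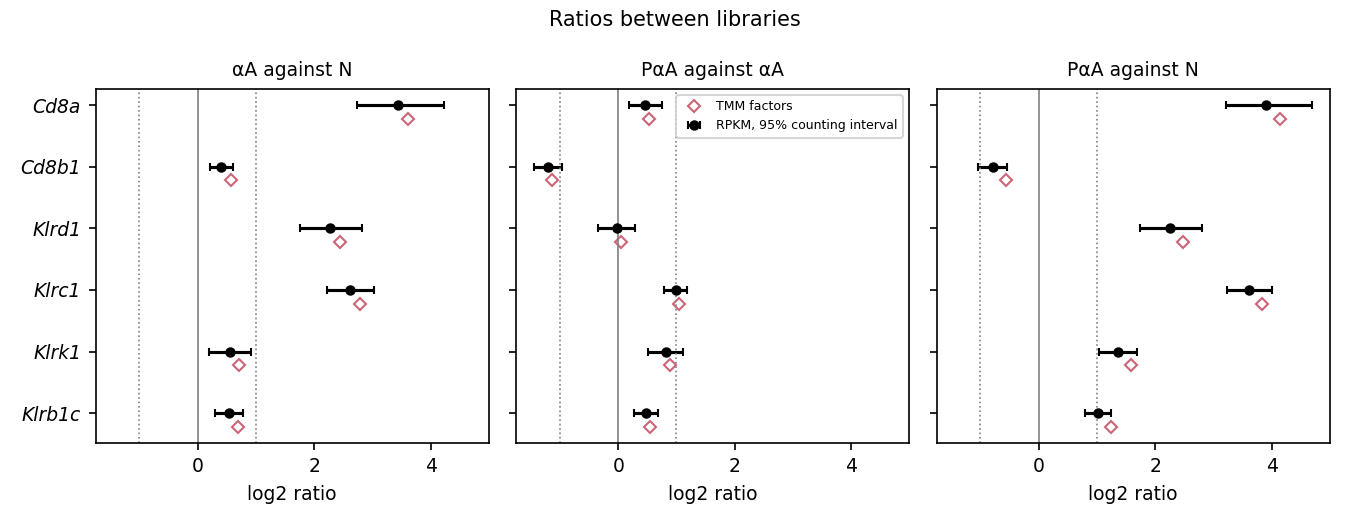
Log2 ratio of RPKM for each gene in αA against N, PαA against αA and PαA against N (black circles with exact 95% counting intervals), and the same ratio with TMM factors (open diamonds). Solid lines mark no difference and dotted lines a 2-fold difference. *Cd8a*, *Klrd1* and *Klrc1* lie right of the 2-fold line against N in both comparisons, and *Cd8b1* lies left of it in PαA against αA.

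The lectin-like genes around these receptors had few reads. Of 26 genes with a *Klr* name, 19 had an RPKM under 1 in every library and 3 had no exon read in any. Those with an RPKM above 5 were *Klrd1*, *Klrc1*, *Klrb1c* and *Klrg1*, which encodes a receptor for cadherins, at 172, 11.7 and 26.9. *Klrk1*, *Klrb1f* and *Klrb1b* complete the 7 genes above an RPKM of 1. *Klrb1f* had 100, 125 and 131 exon reads, and *Klrb1b*, which encodes an inhibitory receptor, had 27, 29 and 112, none of them unique. *Klrg1* was thus lower in αA than in N, the opposite direction to *Klrd1* and *Klrc1* in the same comparison.

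None of the 11 Ly49 receptor genes (*Klra*), which bind class I MHC on NK cells, reached an RPKM of 1 in any library. Their summed exon reads were 47 in N, 42 in αA and 45 in PαA. *Klre1*, an NK receptor gene beside *Klrd1*, had 34, 23 and 8 exon reads, so it was lowest in PαA, where *Klrd1* had 155. *Clec2d*, which encodes a ligand of the inhibitory NKR-P1 receptors, had 937, 320 and 307 exon reads and an RPKM of 26.0, 9.68 and 9.94. It was thus lower in αA than in N by a log2 ratio of -1.42, while *Klrb1c* of the NKR-P1 family was higher by 0.53. *Clec2i*, a further ligand gene of this family, had an RPKM of 9.88, 8.50 and 6.58.

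All 6 genes are on chromosome 6 of GRCm38, in places far apart. By the authors' coordinates *Cd8b1* is at chr6:71322788-71337494 and *Cd8a* at chr6:71373427-71379173, both on the plus strand. *Klrb1c* is at chr6:128778485-128789215 on the minus strand. *Klrd1* at chr6:129591782-129598775 on the plus strand, *Klrk1* at chr6:129610323-129623864 and *Klrc1* at chr6:129666015-129678973, both on the minus strand, lie together within 87192 bases. All 6 are annotated as protein-coding, with 6 to 16 exons. The level belongs to the whole gene, since the tables give no value for single exons or transcripts.

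Of 15 other genes with an RPKM above 1 that lie within 250 kb of any of the 6, 5 were higher and 10 lower in αA than in N, with a median log2 ratio of -0.09. Over all 10262 genes with an RPKM above 1, 3226 were higher and 7024 lower, with a median of -0.17, so the neighbours were near this background. *Rmnd5a*, 9461 bases from *Cd8a*, had a log2 ratio of -0.26 (-0.33 to -0.19) and *Krcc1*, next to *Cd8b1*, one of -0.08 (-0.18 to 0.02). *Gabarapl1*, on the side of *Klrd1* away from *Klrk1*, had -0.19 (-0.33 to -0.05). *Gm44511*, with its 44 reads in αA, was past 2-fold higher, and *Thnsl2* and *Fabp1* were past 2-fold lower. In PαA against αA 6 were higher and 9 lower, beside 4357 and 5887 of all genes with an RPKM above 1. In PαA against N 7 were higher and 8 lower, beside 3266 and 6987 of all these genes. The 3 past 2-fold higher, where 3.91% of all these genes were, *Clec12a* (2.08), *Klrb1b* (2.28) and *Gm44511* (2.55), lie near the lectin receptor genes. *Klrk1*, 11548 bases from *Klrd1*, differed less between αA and N than either *Klrd1* or *Klrc1* on its sides.

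The adaptors that lectin-like receptors signal through were abundant in every library. *Hcst*, the gene of DAP10, through which NKG2D signals, had an RPKM of 200, 193 and 303. *Tyrobp*, the gene of DAP12, had 25.0, 25.8 and 42.6, and *Fcer1g*, which encodes the chain that NK1.1 pairs with, had 16.9, 21.0 and 26.9. All 3 were highest in PαA, as was *Klrk1*, and the RPKM of *Hcst* exceeded that of *Klrk1* by 177-fold, 117-fold and 105-fold. *Ptpn6*, which encodes the phosphatase SHP-1 recruited by NKG2A, had 59.1, 37.8 and 52.4. Of the 16 genes of adaptors and proximal signalling, 15 had an RPKM above 5, and none of these was past 2-fold in any comparison.

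The ligands of CD8 and CD94/NKG2A were abundant, and those of NKG2D that were found by name had few exon reads. The class I gene *H2-K1* had an RPKM of 3145, 3035 and 2919. *H2-T23*, which encodes Qa-1, the ligand of CD94/NKG2A, had 439, 362 and 352. *Ulbp1*, which encodes the NKG2D ligand MULT1, had 0.590, 0.486 and 0.333. *Raet1d*, *Raet1e*, *H60b* and *H60c*, further NKG2D ligands, had 0 to 4 exon reads. However, *Raet1e* had 784, 2363 and 2495 intron reads, of which 777, 634 and 521 were unique, and *H60b* had 1547 in N, none unique. The spans of these genes overlap, so reads that are not unique could belong to either. Of 13 ligand genes listed, 9 were found by name, and the other 4, *Raet1a*, *Raet1b*, *Raet1c* and *H60a*, all of them NKG2D ligands, were not analysed here. Of those found, the 4 with an RPKM above 5 differed by less than 2-fold in every comparison.

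The factors that set the CD4 and CD8 lineages went different ways, and most were lower in αA. Of 14 expressed genes on this list, 4 were higher and 10 lower in αA than in N, beside 2239 and 4778 of the 7017 expressed genes. The median log2 ratio was -0.40 beside -0.14 by RPKM, and -0.24 beside 0.02 with TMM. In PαA against αA 7 were higher and 7 lower. *Zbtb7b*, which encodes ThPOK, the factor of the CD4 lineage, had an RPKM of 23.5, 27.4 and 19.6. *Runx3*, the factor of the CD8 lineage, had 25.4, 17.7 and 23.4, so it was lowest in αA. *Tcf7*, which encodes TCF1, a factor of T-cell development, had 150, 203 and 244, and *Cbfb*, which encodes the partner of the RUNX factors, had 70.2, 73.9 and 83.8, both in the order of *Cd8a*. *Satb1* (6.29, 2.68 and 2.03) and *Lef1* (21.5, 9.66 and 8.92), factors with roles in T-cell development, were the 2 of 14 expressed genes on this list past 2-fold in αA against N, both lower, as were 2.81% of all expressed genes. With TMM factors *Lef1*, at -0.99, was no longer past it. In PαA against αA none of the 14 was past it. With an RPKM above 1, 1 of 16 was past it and higher and 1 lower, beside 448 and 568 of 10262 genes. These were *Eomes*, with 103 exon reads in αA and 320 in PαA (log2 ratio 1.73), and *Myb*, with 328 and 46 (-2.74). *Myb*, at an RPKM of 4.77, 3.19 and 0.479, was just outside the level filter.

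The granzymes were the reason the receptors were singled out, so the opposition given here restates that choice and is not a result. It covered a part of the values. *Gzma*, a granzyme of cytotoxic granules, had an RPKM of 61.8 in N, 3.87 in αA and 4.92 in PαA. *Gzmk*, a granzyme of memory-type T cells, had 79.4, 9.99 and 67.8, and *Gzmb*, the best known cytotoxic granzyme, had 48.2, 33.4 and 21.2. All 3 were lower in αA than in N, with log2 ratios of -4.00, -2.99 and -0.53, where *Cd8a*, *Klrd1* and *Klrc1* were higher. From αA to PαA, *Gzmk* was higher by 2.76, as *Klrc1* was by 0.98 and *Cd8a* by 0.47, and *Gzma* had a log2 ratio of 0.35 with an interval that includes 0 (-0.04 to 0.73). *Gzmb*, at -0.66, was lower. The low granzyme genes *Gzmc* (23, 30 and 19 exon reads) and *Gzmm* (19, 40 and 20) had more reads in αA than in N, and fewer in PαA than in αA, with log2 ratios of -0.56 and -0.90 there.

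Other genes of cytotoxic cells were divided in the same way. *Nkg7*, a granule membrane gene, had an RPKM of 108, 252 and 401, higher at each step, as for *Klrc1*. *Ctsw*, a cathepsin of cytotoxic cells, had 29.6, 49.6 and 59.5. *Tnfsf10*, which encodes TRAIL, had 19.6, 6.53 and 7.49, and *Ccl5*, a chemokine of effector T cells, 816, 432 and 1134. *Prf1*, the perforin gene, had 7.49, 6.54 and 8.13. Of the 12 expressed genes on the cytotoxic list, 5 were higher and 7 lower in αA than in N, with a median log2 ratio of -0.19 beside -0.14 over the 7017 expressed genes. αA is part of both comparisons, so the values are given for each and no relation between the 2 was computed.

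**Figure D4:**
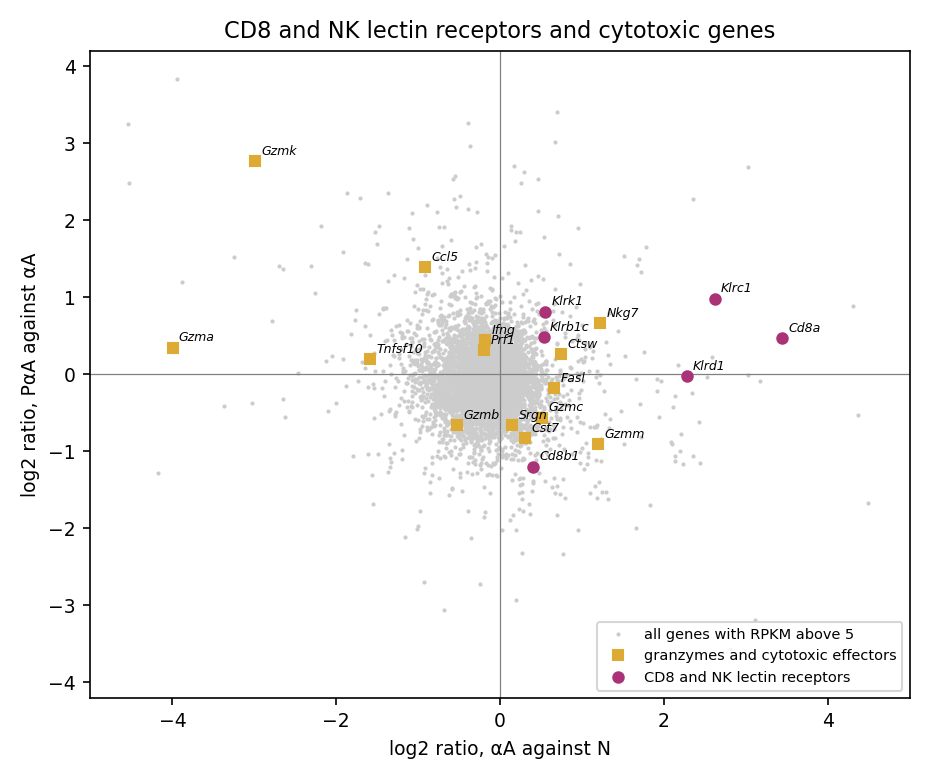
Log2 RPKM ratio of αA against N (horizontal) and of PαA against αA (vertical) for genes with an RPKM above 5 and reads in all 3 libraries (grey), the 6 CD8 and NK lectin receptor genes (circles) and 14 cytotoxic genes (squares). The axes leave out 7 of 6996 grey genes. *Cd8a*, *Klrd1* and *Klrc1* lie at the right, *Gzma* and *Gzmk* at the left, and *Cd8b1* below 0 on the vertical axis. Both axes hold αA.

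Genes that mark other cells were examined since the members are used as markers of CD8+ T and NK cells. In bulk RNA, fewer cells of a type and less RNA per cell cannot be told apart. The NK list of 11 genes had 5 with an RPKM above 1 in N, 3 in αA and 4 in PαA, and a summed RPKM of 52.7, 53.3 and 79.5, most of it *Tyrobp* and *Fcer1g*. Its defining receptor genes were near 0, with 12, 15 and 10 exon reads for *Ncr1*, which encodes NKp46, 21, 0 and 0 for *Klra8* and 8, 0 and 0 for *Klra4*. Intron reads were 0, 24 and 0 for *Klra8* and 0, 13 and 0 for *Klra4*, so neither gene was without reads in αA. Over all genes, too, the share of intron reads was highest in αA, at 5.30% beside 3.62% in N and 3.91% in PαA. *Klra5* and *Klra17*, Ly49 genes without exon reads in any library, had 0, 11 and 0 and 0, 13 and 3 intron reads. Intron reads in αA were thus not particular to *Klra8* and *Klra4*. *Itga2*, which encodes the NK integrin CD49b, had 225, 78 and 107 exon reads. The 6 receptor genes of the NK list, grouped after their values were seen, summed to 88, 47 and 58 exon reads, of which *Klre1* gave 34, 23 and 8. *Klri2*, with 13, 6 and 34, and *Klra9*, with 0, 3 and 6, were highest in PαA, as were *Tyrobp*, *Fcer1g* and *Fcgr3* (RPKM 4.46, 4.10 and 5.42). The part of NK cells in the level of the 6 genes was not tested.

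The list of CD8+ T-cell genes other than the coreceptor had a summed RPKM of 34.7 in N, 41.4 in αA and 73.2 in PαA. Its genes had the order of *Cd8a* in part. *Xcl1*, a chemokine of CD8+ T and NK cells, had an RPKM of 14.2, 27.7 and 37.7, in the order of *Cd8a*. *Ly6c2*, a memory T-cell surface gene, had 12.1, 7.99 and 26.7, and *Eomes*, a factor of CD8+ memory and NK cells, had 3.32, 0.910 and 3.02, both lowest in αA. *Crtam* (1.25, 0.873 and 1.11) and *Cd160* (3.96, 3.96 and 4.59) make up the other 2 of the 5 genes, of which 5, 3 and 5 had an RPKM above 1. The part of CD8+ T cells in the level of *Cd8a* was not tested.

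*Cd7*, a receptor gene of T and NK cells, had an RPKM of 10.1, 16.4 and 68.2, the one gene past 2-fold in PαA against αA among 4 expressed non-lectin receptors of NK and CD8+ cells. *Zbtb16*, which encodes PLZF, the factor of natural killer T cells, had 3, 57 and 30 exon reads, so it too was low in N. Its intron reads, 8, 99 and 50, outnumbered them in every library. *Cd1d1* and *Slamf6*, the other genes of the natural killer T-cell list with an exon length, had an RPKM of 12.3, 10.3 and 12.2 and of 24.7, 16.8 and 28.0. *Traj18*, the remaining gene of that list, has no exon length and had 35, 46 and 27 gene reads, so it was not lowest in N. The γδ T-cell receptor genes have no exon length in the tables and their reads stand as gene reads. *Trdc* had 225, 189 and 47 of them, *Tcrg-C1* 150, 63 and 521, and *Tcrg-C2* 108, 128 and 565, beside 20891 to 42296 for *Trac*, the αβ receptor constant gene. *Tcrg-C4* had 57, 59 and 88 gene reads and *Trdv4* had none. *Sox13*, the remaining gene of the γδ list, had 6, 0 and 0 exon reads. The part of such cells was not tested.

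A type of dendritic cell also carries the CD8 α chain. The summed RPKM of 9 dendritic-cell genes was 358 in N, 211 in αA and 220 in PαA, and *Cd74* (325, 160 and 140) gave most of it. *H2-Ab1*, a class II MHC gene, had an RPKM of 30.0, 47.7 and 74.5, and *Batf3*, a factor of CD8α+ dendritic cells, had 14, 25 and 35 exon reads, both in the order of *Cd8a*. *Clec9a*, which defines the CD8α+ type of dendritic cell, had 2, 5 and 0 exon reads, *Xcr1* had 161, 97 and 92 and *Itgax* had 121, 112 and 272. Of the dendritic-cell genes 3, 3 and 4 had an RPKM above 1. The 6 myeloid genes found summed to an RPKM of 252, 152 and 219, with 6, 4 and 5 above 1, and *Lyz2*, the lysozyme gene, gave most of it (214, 134 and 184). *Csf1r* had an RPKM of 6.25, 10.6 and 6.62. *S100a8* had 185, 11 and 147 exon reads, *S100a9* had 235, 0 and 153, and *Adgre1*, which encodes F4/80, had 222, 470 and 407. The 6 B-cell genes summed to 16.0, 12.9 and 14.6, with 3 above 1 in each library. The 4 genes of immature thymocytes, which carry CD4 and CD8 together, summed to 22, 25 and 0 exon reads, and *Ptcra*, the pre-T-cell receptor gene, had none in any library.

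**Figure D5:**
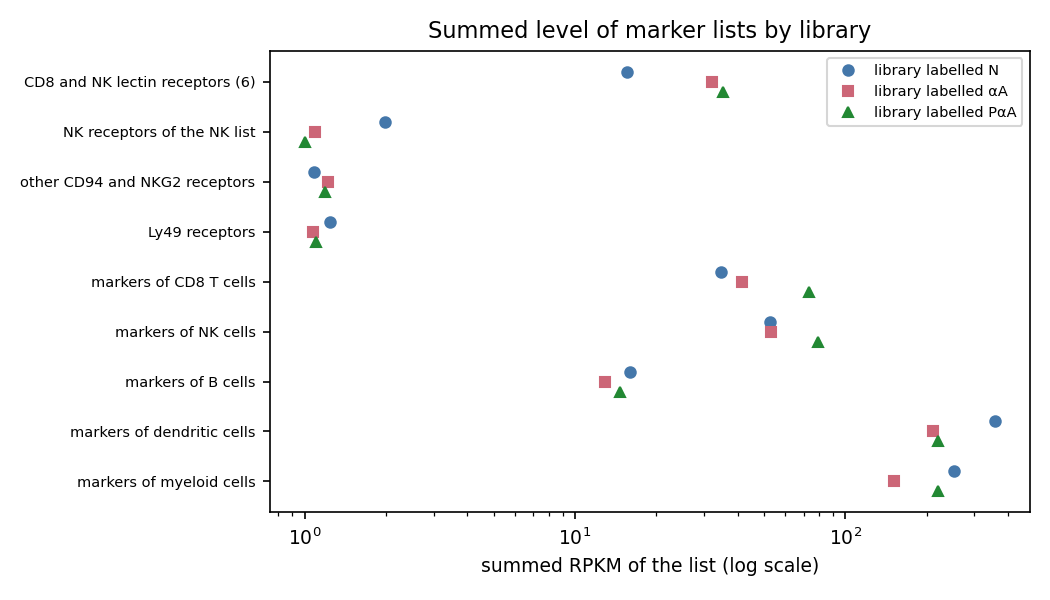
Summed RPKM on a log scale of the 6 CD8 and NK lectin receptor genes and of lists of related receptors and marker genes in the libraries labelled N, αA and PαA. The 6 genes sum to 15.5, 32.2 and 35.3, the 6 receptor genes of the NK list and the Ly49 genes stay at 2.0 or less, and the dendritic-cell and myeloid lists are highest in N, where *Cd74* and *Lyz2* give most of their sums.

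Genes with the most similar pattern were looked for among 6328 expressed genes, by the distance between log2 ratios in the plane of αA against N and PαA against αA, over 3 libraries. *Klrb1c* was closest to *Ptpn4* (distance 0.0071), *Ifngr1* (0.0171) and *Mettl18* (0.0372), and 37 genes lay within 0.25 of it. *Klrk1* was closest to *Ccl4* (0.0425), *AB124611* (0.0611) and *Ifitm3* (0.0819), with 21 genes that near, and *Cd8b1* to *Frmd6* (0.0919), *Tigit* (0.110) and *Grn* (0.145), with 18. *Klrd1* had 2 genes within 0.25, *Ckb* (0.185) and *Car2* (0.224), and *Ifi208* (0.395) came next. *Cd8a* and *Klrc1* had none, the nearest to *Cd8a* being *Epdr1* (0.628), *Ifi208* (0.891) and *Klrc1* (0.971), and the nearest to *Klrc1* being *Ifi208* (0.759), *Sept5* (0.958) and *Ckb* (0.968).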

How the data were processed

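RNA-seq of TFR cells was analysed in 3 libraries, grouped by the genotype in their labels. Per the labels and the methods, 10 ng total RNA was used, and the authors aligned single reads to GRCm38 and counted them in CLC Genomics Workbench with default settings. The authors deposited whole-number counts of exon, unique exon, junction, intron and gene reads, and the deposited RPKM and TPM, which are written with decimal commas and were read as other values. The deposited expression value holds the exon reads. Reads matching several places are in the total and not in the unique counts. The total of each library follows from its reads, exon lengths and RPKM. Genes lacking an exon length (3715) were left out of ratios.

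Ratios of RPKM have exact Clopper-Pearson 95% intervals and levels have Poisson intervals, which cover the error of counting alone, and the floor was 3 reads. With 1 library per genotype no test was made. The 6 genes, the gene lists and the alternatives were chosen with earlier results of these data known. Listed genes were named where their RPKM was above 5 and the ratio past 2-fold in αA against N or PαA against αA, at most 6 a list. The targeted genes, sort markers, defining markers near 0, neighbours within 250 kb and the 3 genes with the most similar pattern were also named. Any other gene was chosen after its values were seen. The filter and intervals were tested on simulated data. TMM factors came from edgeR 4.0.16 in R 4.3.3, and the rest from scipy 1.17.1, numpy 2.4.6, pandas 2.3.3 and matplotlib 3.10.9 in Python 3.11.15. Promoters came from RefSeq (GRCm38.p6). Alternatives were TPM, TMM and median-of-ratios factors, unique reads, pseudocounts of 1 and 0.1, thinning to the smallest library, other thresholds and, added after the data were seen, junction reads. The value of 1 single gene is not reported here.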

Additional observations from a re-analysis of the deposited data

Results flagged for a closer look

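*Raet1e*, an NKG2D ligand gene at chr10:22158569-22374139, stood out by reads in a measure not used for levels. It had 0, 2 and 0 exon reads in N, αA and PαA, but 784, 2363 and 2495 intron reads, of which 777, 634 and 521 were unique. *H60b*, a further NKG2D ligand gene whose span (chr10:22158586-22288849) overlaps it, had 1547 intron reads in N, none of them unique, and 0 in αA and PαA. Genes of this list with at least 100 intron reads and under 10 exon reads were looked for, limits set after the values were seen. With 3 libraries of different genotypes there is no control sample. The intron reads of *Raet1e* in every library and of *H60b* in N lie above the floor of 3 reads.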

How the results depend on the processing

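Under 7 planned settings all 6 genes kept the direction of αA against N and of PαA against N, and 5 of 6 kept that of PαA against αA, the exception being *Klrd1*. A pseudocount of 1 lowered the log2 ratios against N to 1.38 (αA) and 1.71 (PαA) for *Cd8a*, 1.63 and 1.60 for *Klrd1*, 1.86 and 2.75 for *Klrc1*, and to 0.87 in PαA for *Klrk1*, since it is large beside levels near 1 RPKM. Junction reads, added after the data were seen, gave 1.34, 1.86 and 3.20 for *Cd8a* in αA against N, PαA against αA and PαA against N, 0.97 and -1.95 for *Cd8b1* in the first 2, and -0.22 and 0.87 for *Klrk1* against N in αA and PαA. *Klrb1c* in PαA against N was 1.24 with TMM and 1.26 with median-of-ratios factors. In PαA against αA, 2 of the genes in place of 1 were past the limit with TMM, with median-of-ratios factors and at a ratio of 1.5, and in PαA against N 5 in place of 3 with an RPKM above 1 or with no level filter. TPM, pseudocounts of 1 and 0.1 and thinning put *Klrb1c* under 2-fold there, leaving 2. Among all expressed genes, 298, 325 and 725 were past 2-fold in the 3 comparisons. A pseudocount of 1 gave 194 and 215 in the first 2. Junction reads gave 564, 725 and 1149, an RPKM above 1 gave 978, 1016 and 1715, no level filter 4683, 4690 and 4698, and a ratio of 1.5 gave 988, 1033 and 1966. The share of these genes that was higher in the first-named library was 33.9%, 47.1% and 24.8% by RPKM, 51.1%, 55.0% and 48.0% with TMM and 30.2%, 31.3% and 13.4% with TPM. No paired analysis was possible because each genotype has 1 library, and for the same reason none could be left out. Depth limits *Cd8a* in N most, where 18 reads stand behind the level and 3 reads are an RPKM of 0.0322.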
